A study of Mus musculus with 13 samples.

Results

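Neurotrophins are secreted growth factors of the nervous system, and the family described here comprised the ligand genes Bdnf and Ntf3 and the receptor genes Ntrk2, Ntrk3, Ngfr and Sort1. These 6 genes, of 16961 in the count table, were taken by name and followed across the authors' 8 cell classes and across neurons with UMIs of 1 of 2 vesicular transporter genes. The cells came from the medial amygdala, a forebrain region of social behaviour, of naive C57BL/6J mice (an inbred laboratory strain), with 6 male and 7 female libraries. All mice lived under a reversed light cycle and had been alone in the cage for a day or longer. They were 9 weeks old, except in male replicates 3 and 5 and female replicate 3, where they were 8 weeks old. The Act-Seq protocol, which stops transcription while tissue is being dissociated, was followed by Drop-Seq, in which a unique molecular identifier (UMI) lets each mRNA molecule be counted once. The labels give no other treatment and no altered allele for either sex. The labels do not say whether each library came from its own animals, so p-values describe the spread between libraries, part of which may be technical.

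A mature neurotrophin binds a receptor tyrosine kinase of the Trk family: brain-derived neurotrophic factor (BDNF, gene Bdnf) binds TrkB (Ntrk2), and neurotrophin-3 (Ntf3) binds mainly TrkC (Ntrk3). The p75 receptor (Ngfr) binds all mature neurotrophins weakly, and together with sortilin (Sort1) it binds their uncleaved precursors. In the brain BDNF is released by neurons and is known for its part in synaptic plasticity, and astrocytes are known to make mostly a truncated TrkB without the kinase domain. Counts per gene do not separate the truncated from the full-length receptor.

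Of 43388 deposited cells, 24527 were kept (11542 male, 12985 female), 1149 to 2908 per library, with 3718151 to 7874074 UMIs per library. Every class had its own marker list at its highest summed level. The mural class (pericytes and smooth muscle) also held the highest levels of all 6 markers of leptomeningeal fibroblasts, a neighbouring cell type of vessels and meninges. Of 43340 distinct barcodes, 48 occurred in more than 1 library, 19 of them among kept cells. Neurons with Slc17a6 (vesicular glutamate transporter) and no Slc32a1 UMIs are called Slc17a6 neurons (1255 cells, 34.7% of 3615 neurons, median 2145 UMIs per cell). Those with Slc32a1 (vesicular GABA transporter) and no Slc17a6 UMIs are called Slc32a1 neurons (1371 cells, 37.9%, median 2275 UMIs). A further 938 neurons had neither transporter (median 1111 UMIs) and 51 had both. The neurons with neither carried astrocyte markers at a summed 11111 ± 5342 CPM, against 794 ± 314 CPM in Slc17a6 neurons and 767 ± 440 CPM in Slc32a1 neurons (mean ± SD over 13 libraries). Here CPM is a gene's UMIs per 1e6 UMIs of the same cell group in 1 library. Levels are compared between cell groups of 1 gene and never between genes. The authors' classes were built from these same cells, so differences between classes are described and not tested.

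Bdnf (chr2:109674700-109727007, plus strand, GRCm38) was a transcript of Slc17a6 neurons. Its level there was 466 ± 157 CPM (SD, n = 13), with a lowest library at 282, a median of 400.1 and a highest at 809.5 CPM. In Slc32a1 neurons it stood at 29.0 ± 17.6 CPM (4.91 to 70.2 CPM). The ranges did not overlap, and Slc17a6 neurons were higher in 13 of 13 libraries, by a ratio of means of 16.1. Slc17a6 neurons made up 5.12% of kept cells and 6.72% of all UMIs but held 85.4% of the 2640 Bdnf UMIs, while Slc32a1 neurons held 5.27%. The 938 neurons with neither transporter had 81.0 ± 58.1 CPM, a mean above that of Slc32a1 neurons, and held 4.92% (130 UMIs). A Bdnf UMI was found in 35.2% of Slc17a6 neurons (95% exact interval 32.6 to 37.9%, counting error only), in 3.87% of Slc32a1 neurons and in 0.481% of astrocytes (median 1810 UMIs) as the background class. With each cell thinned to 1000 UMIs the shares were 24.4% in Slc17a6 neurons, 1.72% in Slc32a1 neurons and 0.317% in astrocytes.

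Outside neurons, Bdnf was low. Astrocytes had 3.38 ± 2.51 CPM, precursors 2.28 ± 1.72, mural cells 2.24 ± 4.45, microglia 1.97 ± 1.63, endothelial cells 1.05 ± 2.26, newly formed oligodendrocytes 0.656 ± 1.64 and oligodendrocytes 0.484 ± 0.687 CPM. Each neighbouring pair in that order differed by less than 1 SD. Classes farther apart in it could differ: precursors were above oligodendrocytes in 12 of 13 libraries, but on only 28 and 8 UMIs. Summed neuron markers were 1287 CPM in precursors and 120 CPM in oligodendrocytes, and their part in that difference was not tested. Slc32a1 neurons stood above astrocytes in 13 of 13 libraries, although their ranges overlapped.

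**Figure D1:**
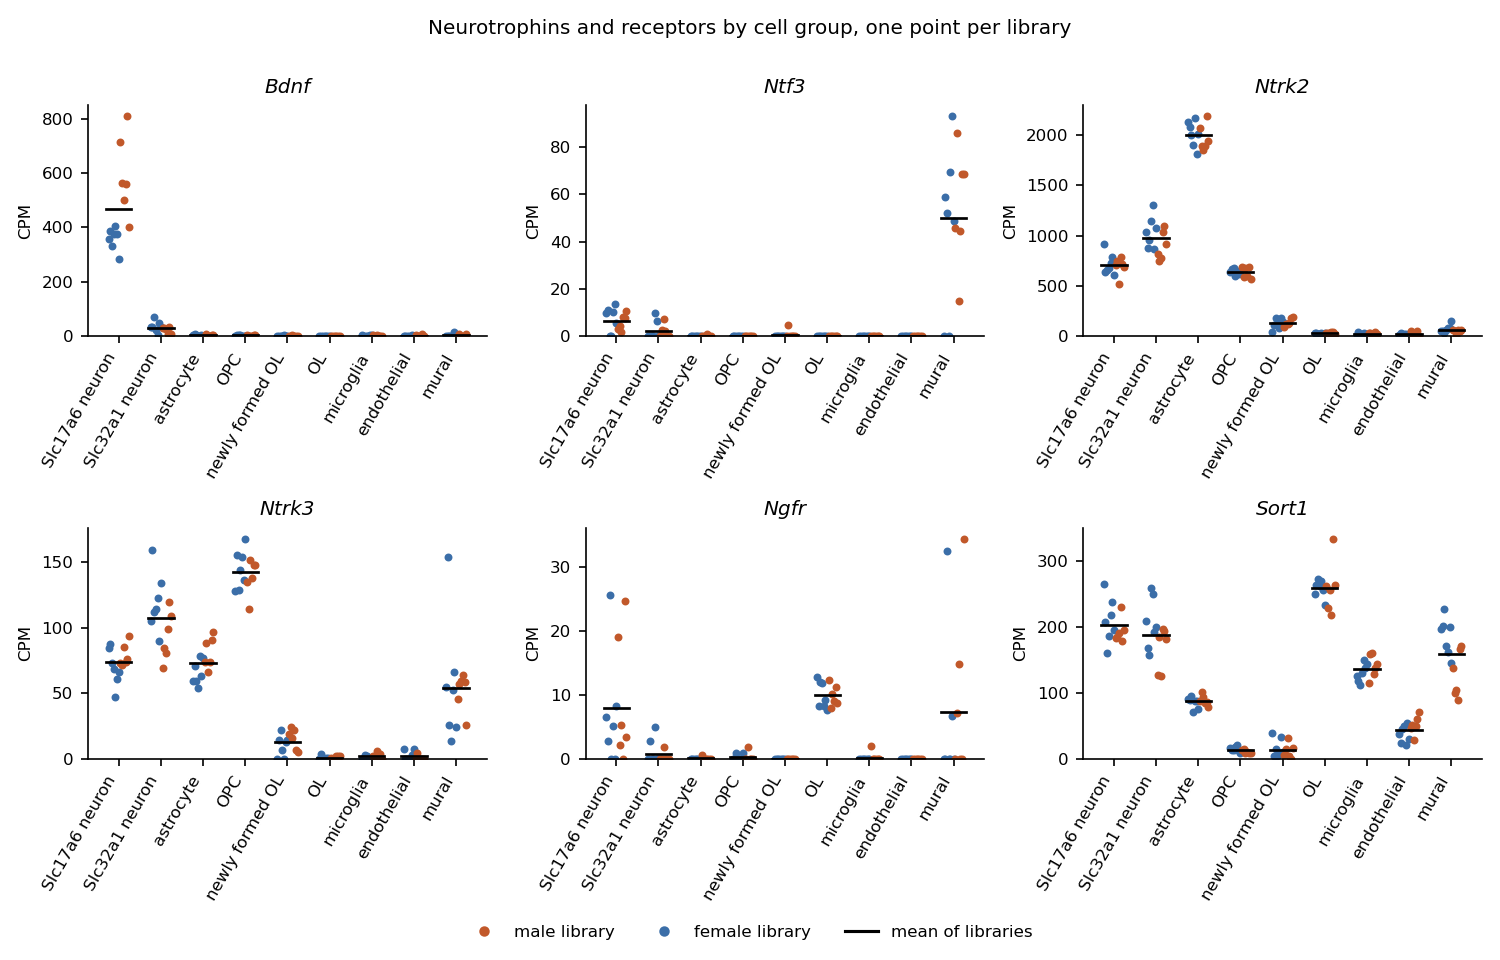
CPM of the 6 genes (vertical axes) in Slc17a6 neurons, Slc32a1 neurons and the 7 non-neuronal classes (horizontal axis), with 1 point per library (male and female in separate colours) and a bar at the mean of 13 libraries. Bdnf peaked in Slc17a6 neurons (mean 466 CPM), Ntf3 in mural cells (50.1), Ntrk2 in astrocytes (1997), Ntrk3 in oligodendrocyte precursors (142), and Ngfr and Sort1 in oligodendrocytes (9.96 and 259.6).

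Bdnf is known for its many alternative first exons, each with its own promoter and all joined to the same coding exon, and RefSeq (GRCm38.p6) lists 7 starts for it. A UMI count adds all of them and does not tell which start was used. The window from 250 bases before to 50 after each start was searched for the cAMP response element half-site, TGACG, on both strands (CGTCA on the strand shown), because CREB binding is a textbook feature of activity-dependent Bdnf transcription. Of the 11 windows found for the 6 genes (7 for Bdnf, 2 for Ntf3, 1 each for Ntrk2 and Ngfr), 1 held it, against 20.8% of all 32851 mouse promoter windows of that length. That window is chr2:109692186-109692485 on the plus strand, start 3 of Bdnf, shown with the half-site in capitals:
Bdnf start 3: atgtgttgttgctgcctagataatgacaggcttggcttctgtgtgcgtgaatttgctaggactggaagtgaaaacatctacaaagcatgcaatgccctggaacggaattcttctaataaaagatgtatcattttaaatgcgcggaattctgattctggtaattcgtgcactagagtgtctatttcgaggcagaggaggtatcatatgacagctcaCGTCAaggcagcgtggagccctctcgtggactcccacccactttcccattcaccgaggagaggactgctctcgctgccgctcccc
The match is a description of these letters and not a site shown to be bound.

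Among Slc17a6 neurons, Bdnf was higher in cells with UMIs of Adcyap1, the gene of the neuropeptide PACAP. Cells with Adcyap1 (524 cells) had Bdnf at 776 ± 329 CPM (lowest 496, median 664, highest 1656), and cells without it (731 cells) at 245 ± 220.1 CPM (61.7, 159 and 877). The ranges overlapped, and cells with Adcyap1 were higher in 12 of 13 libraries, the exception being male replicate 1. The log2 difference (10 CPM added) was 1.90, with an exact sign-flip p over libraries of 7.3e-04 and an adjusted p of 0.0193 over all 11623 genes of the split, of which 11.8% were called, 4.08% were higher and the median log2 difference was -0.18. A Bdnf UMI was found in 55.0% of cells with Adcyap1 and 21.1% of cells without it, at median depths of 2285 and 2047 UMIs. Summed neuron markers were close in the cells with and without Adcyap1 (19072 ± 2505 and 18510 ± 2986 CPM), and astrocyte markers stood at 629 ± 546 and 950.1 ± 445 CPM, whose part in the result was not tested.

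The other 5 genes did not pass the test in the Adcyap1 split, and no gene of the family passed in Slc17a6 neurons split by Slc17a7, Trh or Cck, where 2.04%, 7.86% and 3.52% of all genes were called. Ngfr stood at 16.5 ± 23.6 CPM in cells with Cck (cholecystokinin) and 1.82 ± 3.74 CPM in cells without it (33 and 5 UMIs, exact p = 0.00586, adjusted p = 0.0914). Bdnf stood at 478 ± 982 CPM in cells with Trh (thyrotropin-releasing hormone) and 484 ± 183 CPM in cells without it, and was lower with Trh in 12 of 13 libraries (exact p = 0.0549, adjusted p = 0.177). Without male replicate 1 the log2 difference by Trh was -1.49 and its adjusted p 0.0394. In that library 1 Slc17a6 neuron of 16467 UMIs held 145 of the 226 Bdnf UMIs (64.2%), and it had 0 Adcyap1 UMIs. The top cell of the other libraries held 10.1 to 37.8%.

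Within Slc32a1 neurons no split by an inhibitory subtype gene passed for any member. The shares of all genes called were 0% for Sst, 1.14% for Npy, 0% for Tac1 and 1.07% for Penk, with 1666 and 1172 of 11593 genes at an unadjusted p below 0.05 for Sst and Tac1. Bdnf stood at 5.64 ± 11.2 CPM in cells with Npy (neuropeptide Y), on 3 UMIs, and 33.2 ± 23.8 CPM in cells without it (exact p = 0.00415, adjusted p = 0.0782). Ntrk2 had 1333 ± 398 CPM in cells with Npy and 929.7 ± 163 CPM in cells without it, and was higher in 11 of 13 libraries (exact p = 0.00708, adjusted p = 0.0996). For Sort1, cells with Sst (somatostatin) had 148 ± 50.9 CPM and cells without it 202 ± 39.8 CPM, lower in 11 of 13 libraries (exact p = 0.00122, adjusted p = 0.0828).

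**Figure D2:**
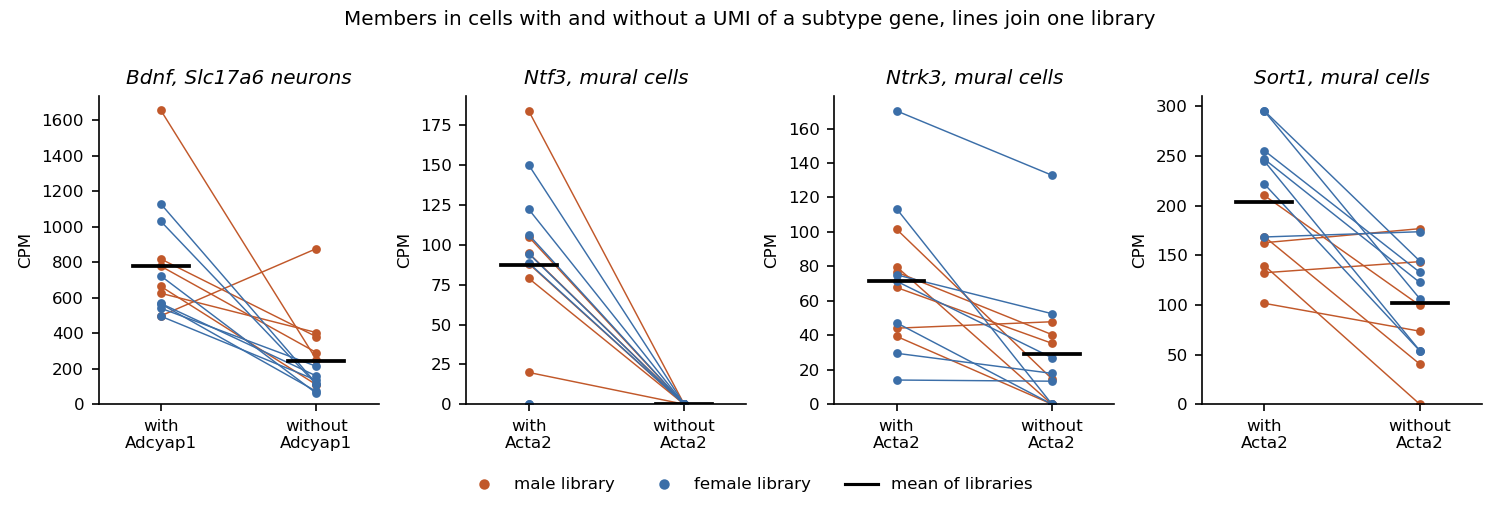
CPM (vertical axes) of members in cells with and without UMIs of a subtype gene (horizontal axis), with lines joining the values of 1 library and a bar at the mean. Bdnf was higher with Adcyap1 in 12 of 13 libraries, and all 88 mural Ntf3 UMIs lay in cells with Acta2.

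Ntf3 (chr6:126101412-126166910, minus strand) was a rare transcript found mainly in the mural class. That class was 3.11% of kept cells and held 88 of 142 Ntf3 UMIs (62.0%). Its mural level was 50.1 ± 29.7 CPM (SD, n = 13), with a median of 52.0 and a highest library at 93.2 CPM, and it was 0 in female replicates 1 and 4, which held 39 and 72 mural cells. Slc17a6 neurons followed at 6.58 ± 4.46 CPM (29 UMIs) and Slc32a1 neurons at 2.17 ± 3.43 CPM (10 UMIs). Mural cells were above Slc17a6 neurons in 11 of 13 libraries, and both neuron groups overlapped within 1 SD. A further 8 UMIs lay in the 51 neurons with both transporters, 4 in neurons with neither, 2 in astrocytes and 1 in newly formed oligodendrocytes. None was counted in precursors, oligodendrocytes, microglia or endothelial cells, where 3 UMIs over the group would be 0.239, 0.199, 0.389 and 0.937 CPM. An Ntf3 UMI was found in 7.85% of mural cells (median 1631.5 UMIs; 3.59% when thinned to 1000 UMIs) and in 0 of 3727 microglia (median 1788 UMIs), which by the floor of 3 counts allows a share of up to 0.0805%.

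All mural Ntf3 UMIs lay in cells with Acta2, the smooth muscle actin. The 331 mural cells with Acta2 had 87.2 ± 54.2 CPM (lowest 0, median 94.5, highest 184), and the 433 cells without it had 0 UMIs in every library. Cells with Acta2 were higher in 11 of 13 libraries and tied at 0 in the others (exact p = 9.8e-04, adjusted p = 0.00699 over 9131 genes, of which 22.8% were called and 11.8% were higher). The pooled level was at least 22.5-fold higher with Acta2, with 3 UMIs over the group without Acta2 as its floor. Conversely, the 134 mural cells with Dcn, the fibroblast proteoglycan decorin, held 0 of the 88 UMIs, against 61.8 ± 38.2 CPM in the 630 cells without Dcn (at least 6.23-fold lower with Dcn, exact p = 9.8e-04, adjusted p = 0.00835; 26.2% of genes were called, 21.5% were lower and the median log2 difference of all genes was -0.61). Only 1 cell had both Acta2 and Dcn, and mural cells with neither gene counted as without in both splits, so the 2 splits share cells. With all 88 UMIs in cells with Acta2, the Ntf3 result by Dcn was nearly fixed and adds no separate evidence. Leptomeningeal markers summed to 278 ± 73.6 CPM in mural cells with Acta2 and 10443 ± 3349 CPM in those without it, and the median depth was 2535 UMIs with Acta2 and 1388 without.

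Ntrk3 and Sort1 were also higher in mural cells with Acta2. Ntrk3 had 71.6 ± 40.8 CPM (14.04 to 170.3) in mural cells with Acta2 and 29.4 ± 36.3 CPM (0 to 133) in those without it, higher in 12 of 13 libraries (log2 1.36, exact p = 7.3e-04, adjusted p = 0.00581). Sort1 had 203 ± 62.7 CPM with Acta2 and 102 ± 54.2 CPM without, higher in 10 of 13 libraries (log2 1.15, exact p = 0.00195, adjusted p = 0.0120). It was also lower in cells with Dcn, at 95.2 ± 73.2 CPM against 174 ± 47.8 CPM without Dcn (log2 -1.14, exact p = 0.00464, adjusted p = 0.0247). Ntrk2 lay the other way at 39.9 ± 42.3 CPM with Acta2 and 87.8 ± 54.5 CPM without, and did not pass (adjusted p = 0.0757). Summed astrocyte markers were also lower with Acta2 (348 ± 357 against 1082 ± 512 CPM), as were neuron markers (200 ± 126 against 639 ± 238 CPM). The part of such transcripts in the Ntrk2 values was not tested. In endothelial cells, Sort1 stood at 12.1 ± 18.7 CPM with the arterial gene Gkn3 and 49.2 ± 18.9 CPM without it (12 libraries, exact p = 0.00146, adjusted p = 0.0536, with 2.15% of genes called in that split). In all, 6 of 50 tests of the members across 11 subtype genes passed. All but that of Bdnf by Adcyap1 lay in the mural splits by Acta2 and Dcn, where 22.8% and 26.2% of all genes were called. In the other splits the share of all genes called ran from 0% to 11.8%.

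Ntrk2 (chr13:58806569-59133970, plus strand) was widespread and highest in astrocytes. These had 1997 ± 125 CPM, from 1817 in the lowest library through a median of 2005 to 2189 CPM, and held 60.2% of its 47447 UMIs. Slc32a1 neurons came next at 973 ± 159.8 CPM (747 to 1302), Slc17a6 neurons had 705 ± 96.6 CPM (515 to 915) and precursors 639 ± 39.8 CPM (570.4 to 690.1). Astrocytes were above Slc32a1 neurons in 13 of 13 libraries without overlap, by a ratio of 2.05, while Slc17a6 neurons and precursors differed by less than 1 SD. Neurons with neither transporter, which carried astrocyte markers as given above, had 1052 ± 271 CPM of Ntrk2.

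The remaining classes had little of it. Newly formed oligodendrocytes had 129 ± 44.8 CPM, mural cells 59.4 ± 33.1, oligodendrocytes 28.6 ± 6.90, microglia 23.5 ± 11.9 and endothelial cells 21.8 ± 15.8 CPM, and neighbours among the last 4 differed by less than 1 SD. Summed astrocyte markers were 647 CPM in mural cells, 264 in oligodendrocytes, 382 in microglia and 347 in endothelial cells, against 29874 CPM in astrocytes. The part of astrocyte transcripts in these Ntrk2 levels was not tested. An Ntrk2 UMI was found in 92.4% of astrocytes and in 3.86% of microglia as the background class, at similar median depths (1810 and 1788 UMIs). The share was 81.1% in Slc32a1 neurons, 72.0% in Slc17a6 neurons and 74.8% in precursors.

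Ntrk3 (chr7:78175959-78738012, minus strand) was highest in oligodendrocyte precursors. These had 142 ± 14.1 CPM (114 to 168, median 144.2) and held 44.3% of its 3997 UMIs, followed by Slc32a1 neurons at 107.5 ± 24.1 CPM (69.5 to 159). Precursors were higher in 12 of 13 libraries, with overlapping ranges. Slc17a6 neurons (73.9 ± 12.3 CPM), astrocytes (73.2 ± 12.99) and mural cells (54.0 ± 34.6) followed, with less than 1 SD between neighbours among these 3, and newly formed oligodendrocytes had 12.6 ± 8.11 CPM. Microglia, endothelial cells and oligodendrocytes had 1.81, 1.76 and 0.958 CPM. An Ntrk3 UMI was found in 32.4% of precursors (median 2669 UMIs) and in 0.322% of microglia. An antisense gene, Gm9885, lies within Ntrk3 on the other strand and had 558 UMIs, 352 of them in precursors. Without a stated strand of counting, UMIs of the pair could not be told apart, and the Ntrk3 values are uncertain to that extent. The same holds for Sort1, whose antisense gene Gm12523 had 28 UMIs, and for Bdnf and Ntrk2, whose antisense genes have no row of their own in the table.

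The p75 receptor gene Ngfr (chr11:95568818-95587735, minus strand) was sparse, and oligodendrocytes held 149 of its 212 UMIs (70.3%). Their level was 9.96 ± 1.84 CPM (7.68 to 12.7, median 9.23), above 0 in 13 of 13 libraries. A UMI was found in 3.42% of oligodendrocytes (median 3182 UMIs) and in 0.0155% of astrocytes, so at this depth most oligodendrocytes had none. Slc17a6 neurons averaged 7.92 ± 9.14 CPM, within 1 SD of oligodendrocytes, but on 38 UMIs in 19 cells of 10 libraries, with 13 UMIs in male replicate 5, 7 in female replicate 3 and 6 in male replicate 1. Mural cells had 12 UMIs in 5 libraries (7.35 ± 12.4 CPM), precursors and Slc32a1 neurons 3 each, and endothelial cells and newly formed oligodendrocytes none, where 3 UMIs would be 0.937 and 1.19 CPM.

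Sortilin (Sort1, chr3:108284082-108361511, plus strand) was highest in oligodendrocytes at 259.6 ± 27.8 CPM (218 to 334, median 262), which held 44.0% of its 8806 UMIs. Slc17a6 neurons (203 ± 28.5 CPM), Slc32a1 neurons (188 ± 39.4), mural cells (159.6 ± 42.7) and microglia (136 ± 15.8) followed, and neighbours among these 4 differed by less than 1 SD. Oligodendrocytes were above Slc17a6 neurons in 11 of 13 libraries, with overlapping ranges. Astrocytes had 87.0 ± 8.19 CPM and endothelial cells 43.7 ± 14.8 CPM, each below the class before it in 13 of 13 libraries without overlap. The lowest levels were those of newly formed oligodendrocytes (14.04 ± 12.6 CPM) and precursors (12.9 ± 3.79 CPM). A Sort1 UMI was found in 54.7% of oligodendrocytes and in 3.31% of precursors (median 3182 and 2669 UMIs).

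The oligodendrocyte lineage, in which precursors mature through newly formed cells into myelinating oligodendrocytes, showed opposite orders for the Trk receptors and for the other pair. Ntrk2 stood at 639 CPM in precursors, 129 CPM in newly formed oligodendrocytes and 28.6 CPM in oligodendrocytes, lower at each step in 13 of 13 libraries and by a ratio of 22.3 over both steps. Ntrk3 stood at 142, 12.6 and 0.958 CPM in the same order, lower in 13 of 13 libraries at the first step. Sort1 stood at 12.9, 14.04 and 259.6 CPM, with precursors and newly formed cells within 1 SD and oligodendrocytes higher than both in 13 of 13 libraries. Ngfr had 3, 0 and 149 UMIs in the same order. The Trk receptors were therefore lowest where Sort1 and Ngfr were highest, as a description of the authors' classes. These held 4163, 463 and 3887 cells at median depths of 2669, 4061 and 3182 UMIs.

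**Figure D3:**
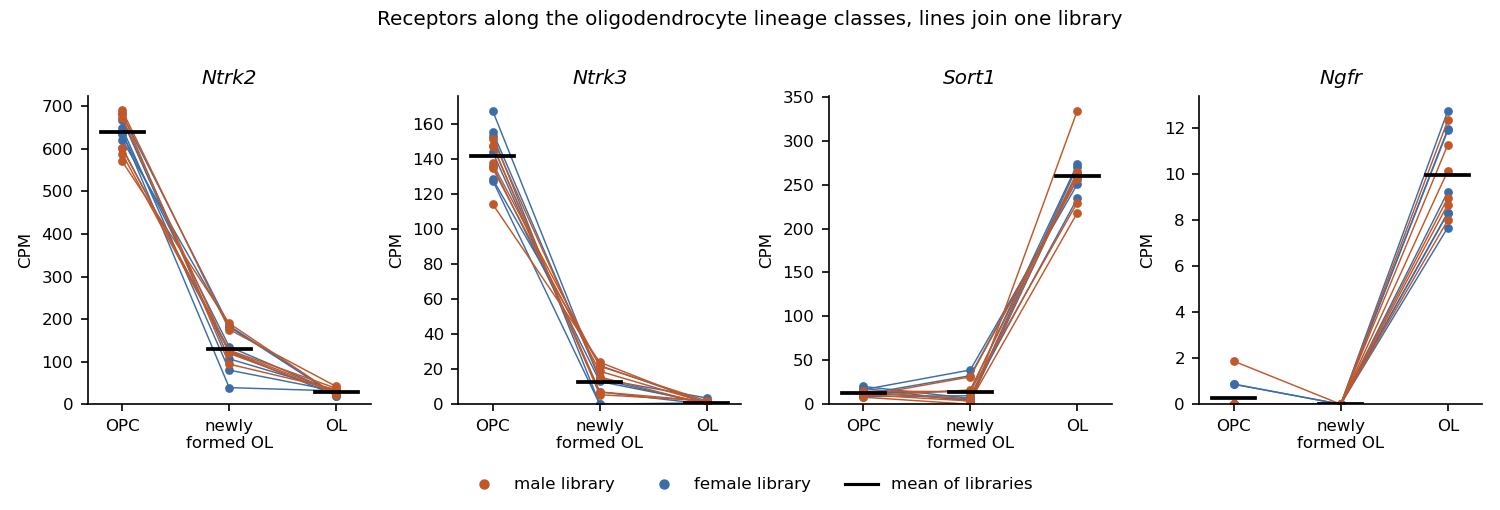
CPM (vertical axes) of the 4 receptor genes in precursors (OPC), newly formed oligodendrocytes and oligodendrocytes (OL), with lines joining the classes of 1 library and a bar at the mean. Ntrk2 and Ntrk3 were highest in precursors in all 13 libraries, and Sort1 and Ngfr in oligodendrocytes.

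Slc17a6 and Slc32a1 neurons of the same library were compared with edgeR's quasi-likelihood test, the library as a block and Benjamini-Hochberg adjustment over 6191 genes, of which 17.6% were called (8.87% higher and 8.77% lower in Slc17a6 neurons). Of the 4 members tested, 1 was higher and 2 were lower in Slc17a6 neurons, and these calls held in all 21 alternatives. Bdnf was higher (log2 4.01 ± 0.26 SE, edgeR adjusted p = 4.6e-08). Ntrk2 was lower, at 705 ± 96.6 CPM in Slc17a6 neurons and 973 ± 159.8 CPM in Slc32a1 neurons, in 13 of 13 libraries (log2 -0.49 ± 0.08, edgeR adjusted p = 2.1e-06). Ntrk3 was lower, at 73.9 ± 12.3 and 107.5 ± 24.1 CPM in the same order, in 11 of 13 libraries (log2 -0.53 ± 0.13, edgeR adjusted p = 0.00193). Sort1 did not pass (log2 0.10 ± 0.10, edgeR adjusted p = 0.563). Bdnf was thus higher in Slc17a6 neurons and both Trk receptor genes in Slc32a1 neurons. Ntrk2 was not absent from the former, of which 72.0% had a UMI of it. The Slc17a6 neurons included 116 cells with UMIs of Trp73, a p53 family transcription factor gene. Over 10 libraries those cells had Ntrk2 at 329 CPM and Ntrk3 at 0 CPM, against 788 and 84.5 CPM in the 1139 cells without Trp73. Their part in the differences by transmitter was not tested. Ntf3 (29 and 10 UMIs) and Ngfr (38 and 3 UMIs) fell below the expression filter. Astrocyte markers were at 794 and 767 CPM in the Slc17a6 and Slc32a1 neurons.

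**Figure D4:**
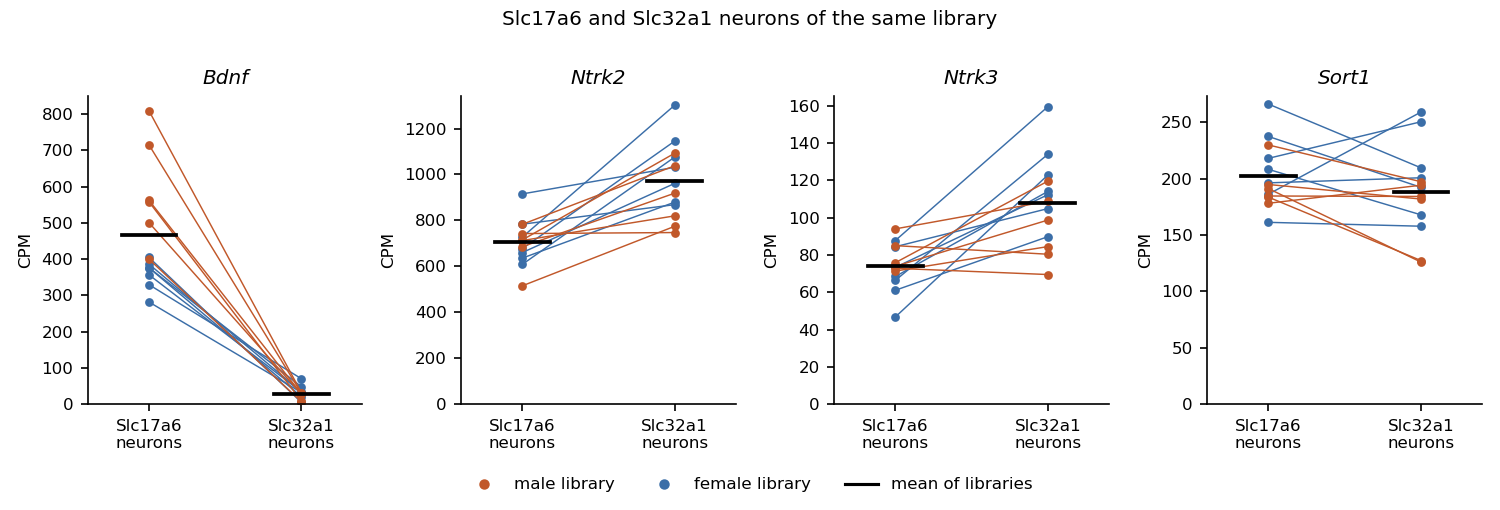
CPM (vertical axes) of Bdnf, Ntrk2, Ntrk3 and Sort1 in Slc17a6 and Slc32a1 neurons (horizontal axis), with lines joining the neurons of 1 library, coloured by sex, and a bar at the mean. Bdnf was higher in Slc17a6 neurons and Ntrk2 lower in all 13 libraries, whereas Sort1 lines crossed.

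Of the 56 genes on a list of the neurotrophin pathway, which includes the members, 53 were in the table and 27 passed the filter in this comparison. Of these 27, 6 were higher and 7 lower in Slc17a6 neurons, where 8.87% and 8.77% of all 6191 genes tested were higher and lower. The median log2 was -0.02 for the 27 genes, against -0.00 for all genes. Among genes that cleave or release the precursor, Pcsk1, a proprotein convertase, was higher (137 against 66.2 CPM, log2 0.98 ± 0.14, edgeR adjusted p = 8.4e-07), as were Pcsk5 (log2 0.65 ± 0.21) and Plat, the tissue plasminogen activator (log2 0.47 ± 0.16). Cadps2, which takes part in vesicle release, and Hap1, which binds huntingtin in vesicle transport, were lower (log2 -0.88 ± 0.25 and -0.37 ± 0.09). Of the sortilin family, Sorcs1 was higher (165.8 against 100.7 CPM, log2 0.63 ± 0.12) and Sorl1 lower (log2 -0.89 ± 0.11). Of the partners of p75, Lingo1 was higher (log2 0.66 ± 0.13) and Maged1 lower (log2 -0.30 ± 0.07). Vgf, which BDNF is known to induce in neurons, was lower in Slc17a6 neurons (353 against 724 CPM, log2 -1.06 ± 0.11, edgeR adjusted p = 9.5e-08).

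Whether Slc17a6 neurons with a Bdnf UMI also carried the receptors was compared with each cell thinned to 1000 UMIs (249 cells with and 820 without Bdnf, 186 shallower cells left out). Ntrk2 was found in 50.6 ± 16.99% of cells with Bdnf and 49.0 ± 5.90% of cells without it (exact sign-flip p over 13 libraries = 0.760), a difference of 1.52 ± 18.1 percentage points (SD) that was 9.30 points at 2000 UMIs (exact p = 0.0266). Before thinning, 348 of 442 cells with Bdnf (78.7%) and 68.4% of those without also had Ntrk2. Ntrk3 was found in 5.13 ± 5.04% of cells with Bdnf and 6.65 ± 2.42% of cells without it (exact p = 0.412). Sort1 was found in 28.5 ± 7.70% and 18.8 ± 5.33%, higher with Bdnf in 12 of 13 libraries (exact p = 0.00146). That difference of 9.77 percentage points was 1.89 at 500 UMIs (exact p = 0.601), 4.49 at 2000 UMIs (exact p = 0.313) and 2.61 with all deposited cells at 1000 UMIs (exact p = 0.309). It thus did not hold at other depths or with all deposited cells. Leaving out any 1 library kept it at 8.58 to 10.9 points.

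The sexes were compared within each class and transmitter group with edgeR's quasi-likelihood test over libraries. None of 26 tests of 5 members in 10 comparisons passed an adjusted p of 0.05, 6 had an unadjusted p below 0.05, and DESeq2 called 1 of 25. Of all genes tested, 0.0666% were called in Slc17a6 neurons, 0.0892% in Slc32a1 neurons, 0.0623% in all neurons, 1.16% in astrocytes, 0.131% in precursors, 0.0889% in newly formed oligodendrocytes, 0.261% in oligodendrocytes, 0.349% in microglia, 1.28% in endothelial cells and 0.123% in mural cells. The member closest to the threshold was Bdnf in Slc17a6 neurons. Male libraries had 591 ± 148 CPM (lowest 400.1, median 560.4, highest 809.5) and female libraries 359 ± 41.3 CPM (282, 376 and 405). The ranges met only at their ends: the lowest male library, replicate 6, lay below the highest female library, replicate 5. The log2 difference, male minus female, was 0.70 ± 0.15 (edgeR adjusted p = 0.0507 over 6009 genes, of which the 4 called were all sex-linked). It was positive in all 21 alternatives and passed in 6 of them, with adjusted p from 0.00632 to 0.999. Without the 3 libraries of 8 weeks it was 0.58 (adjusted p = 0.999).

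Several measures of the Slc17a6 neurons were set beside that difference after it had been seen, by exact permutation over the 1716 assignments of sex to libraries, adjusted over the 8 measures. They were chosen because of that difference and are no independent evidence of it. The adjustment covers these 8 measures and not the choice of Bdnf from 26 tests by sex. Their p-values therefore do not replace the edgeR result, which did not pass. In cells without Adcyap1 Bdnf was 386 ± 263 CPM in males (109.7 to 877) and 124 ± 51.9 CPM in females (61.7 to 214), with an exact p of 0.0105 and an adjusted p of 0.0404. The 877 CPM was male replicate 1, where 1 cell without Adcyap1 UMIs held 145 of the 226 Bdnf UMIs of its Slc17a6 neurons. The next highest male library, replicate 3, had 404 CPM. In cells with Adcyap1 Bdnf was 839.9 ± 416 CPM in males and 722 ± 256 CPM in females (exact p = 0.571). Over all Slc17a6 neurons, leaving out the cell with the most Bdnf UMIs in each library left male libraries at 454 ± 149 CPM and female libraries at 285 ± 46.5 CPM (log2 0.60, exact p = 0.0152, adjusted p = 0.0404). That step was not taken within the cells without Adcyap1. Cells with a Bdnf UMI were 39.6 ± 7.79% of Slc17a6 neurons in males and 29.3 ± 5.29% in females (exact p = 0.0256, adjusted p = 0.0513), and the median depth was 2427 ± 414 UMIs in males and 2170.1 ± 357 UMIs in females (exact p = 0.247). Cells with Adcyap1 made up 42.8 ± 6.26% in males and 38.5 ± 6.58% in females (exact p = 0.246). Cells with UMIs of Trp73, a p53 family transcription factor gene, made up 7.81 ± 6.01% in males and 12.0 ± 6.79% in females (exact p = 0.261). The Bdnf level of all Slc17a6 neurons, the difference first seen, had an exact p of 0.00233 and an adjusted p of 0.0186 by this permutation. The parts of depth and of the Adcyap1 and Trp73 shares in the Bdnf difference were not tested.

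**Figure D5:**
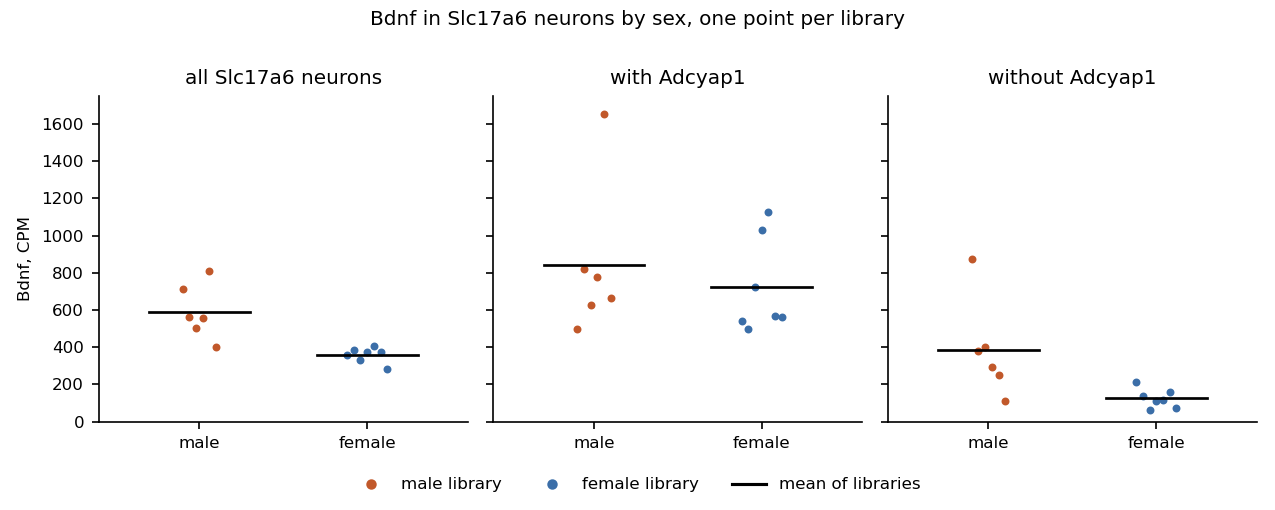
Bdnf CPM (vertical axes) per library in male and female Slc17a6 neurons, and in those with and without Adcyap1 UMIs, with a bar at the mean of each sex. Male Slc17a6 neurons averaged 591 CPM against 359 CPM in females, and cells without Adcyap1 386 against 124 CPM. In cells without Adcyap1, male replicate 1 was highest at 877 CPM and included 1 cell with 145 Bdnf UMIs.

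In Slc32a1 neurons Bdnf lay the other way, with male libraries at 22.0 ± 11.4 CPM and female libraries at 34.9 ± 20.5 CPM. Its log2 difference was -0.74 ± 0.35 (edgeR adjusted p = 0.610). The difference between these 2 sex effects was 1.47 ± 0.34 on the log2 scale (edgeR adjusted p = 0.333), where 0.0135% of 7386 genes were called, so Bdnf did not pass. The other unadjusted p-values below 0.05 by sex were those of Bdnf in all neurons (log2 0.56 ± 0.15, adjusted p = 0.466), Ntrk3 in Slc32a1 neurons (-0.39 ± 0.19, adjusted p = 0.610) and in astrocytes (0.26 ± 0.12, adjusted p = 0.376), and Sort1 in mural cells (-0.53 ± 0.22, adjusted p = 0.595), all by edgeR. Ntrk2 showed small differences in the classes where it was highest, with a log2 of -0.06 ± 0.07 in astrocytes, -0.03 ± 0.07 in precursors, -0.24 ± 0.14 in Slc32a1 neurons and -0.08 ± 0.15 in Slc17a6 neurons. Sort1 in oligodendrocytes had a log2 of 0.00 ± 0.08, and Ngfr there -0.02. Of the pathway list, only Plat (log2 -0.70 ± 0.12, edgeR adjusted p = 3.6e-04) and Fos (log2 -0.80 ± 0.20, adjusted p = 0.0304) passed by sex, both lower in males and both in astrocytes.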

How the data were processed

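The submitters' processing notes name STAR 2.5.0a, bcl2fastq 2.17.1.14 and the build mm10. The sources used here do not give the annotation, the UMI collapsing, the choice of cells or the strand of counting. Values as deposited were raw UMI counts per gene and cell, and the authors' cell names gave library and class. Cells with under 500 detected genes and 281 Scrublet doublets (scanpy 1.11.5) were removed. Counts were summed per library and group, which was tested where it held at least 10 cells, with edgeR 4.0.16 in R 4.3.3 (TMM, filterByExpr, quasi-likelihood, two-sided, Benjamini-Hochberg over all genes tested). DESeq2 1.42.0 was an alternative, and the fits were tested on simulated data.

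Subtype splits took log2(CPM + 10) differences within each library (at least 5 cells a side, 6 libraries and 20 UMIs of a member), tested with exact sign flips for every gene and adjusted over all genes of the split, in place of an adjustment over the family as first planned. Shares of cells with a UMI used kept cells at their own depth, except where thinning to 1000 UMIs or another depth is stated. Intervals are 95% exact (Clopper-Pearson), and they and the floor of 3 UMIs cover counting error only. Gene positions are those of GENCODE M21 on GRCm38, and promoter windows those of RefSeq. Named genes were the 6 members, the pathway genes past a test and, per member, the 3 genes with the most similar levels over 9 groups. Some genes of the pathway list are not reported here. The members, gene lists and tests were chosen with earlier results of these data known.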

Additional observations from a re-analysis of the deposited data

Results flagged for a closer look

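Each member's level was checked for a library far from the others of its sex, in 58 groups of 6 male or 7 female libraries, by setting the gap to the nearest library against the whole range. A gap above Dixon's 95% critical value marked 4 libraries, and chance marks about 1 in 20 groups. In Slc17a6 neurons, Ntrk2 was 515 CPM in male replicate 3, against a male median of 713.5 CPM. Sort1 was 229.9 CPM in male replicate 4, where the male median was 188 CPM. Ngfr was 25.7 CPM in female replicate 3, on 7 UMIs, against a female median of 5.19 CPM. In all neurons, Bdnf was 135.7 CPM in female replicate 7, below a female median of 179.9 CPM.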

How the results depend on the processing

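Over 107 results and 1916 recomputations, 1850 kept their side of the threshold and any called direction (or stayed within 1.5 times a count), 51 values that passed no test changed sign, 3 lost and 15 gained a call, 48 values moved and 0 called values changed sign. The highest group of each member was the same with all deposited cells, a minimum of 1000 genes or doublets kept. Calls by transmitter among members held throughout, while the count of all genes called ran from 742 without the 8-week libraries (DESeq2 762) to 1570 with no expression filter. Member calls by sex were 0, but 1 with DESeq2, 1 with no filter and 0 to 2 with a library left out. For Bdnf in Slc17a6 neurons the log2 by sex was 0.70 with DESeq2 (adjusted p = 0.0192), 0.74 with no filter (0.00632) and 0.59 to 0.78 with a library left out. Leaving out male replicate 3 or 6 gave an adjusted p of 0.0294 or 0.0141, and leaving out female replicate 1 or 6 gave 0.0368 or 0.0458, and in all neurons 0.0237 without male replicate 6. With a replicate block its log2 was 0.61 (edgeR adjusted p = 0.729). Same-numbered male and female libraries had correlations of -0.31 to 0.19 over all cells, where 0 of 6 male libraries correlated best with their own number. In astrocytes these were -0.08 to 0.20, and 4 of 6 male libraries correlated best with their own number. Whether the numbers pair the libraries cannot be told from these values. The transmitter by sex term called 1 gene, but 0 with DESeq2, 7 with no filter, 2 with all cells, 0 without the 8-week libraries, 2 with cells of both transporters in both groups and 0 to 2 with a library left out. Its Bdnf value was 1.48 with no filter (edgeR adjusted p = 5.7e-04), 1.63 without female replicate 5 (0.00716) and 1.22 to 1.63 with any library left out. In Bdnf-positive neurons the Ntrk2 difference was 9.30 points at 2000 UMIs (exact p = 0.0266), and the Sort1 difference 1.89 points at 500 UMIs, 4.49 at 2000 and 2.61 with all deposited cells. Subtype calls of members were 6, and 8 with 1 CPM added, 7 with all cells and 6 to 7 with a library left out. The cause of these changes was not tested. Depth limits Ntf3 (142 UMIs) and Ngfr (212 UMIs), for which a group without UMIs shows only a bound. Counts of all genes called by sex moved by over 1.5 times with a library left out in astrocytes (64 to 205, against 113), precursors (10 to 26, against 14), oligodendrocytes (15 to 103, against 22), microglia (19 to 47, against 26), endothelial cells (36 to 136, against 66), Slc32a1 neurons (6 to 10, against 6) and mural cells (3 to 14, against 4).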

Other observations

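Slc17a6 neurons with UMIs of Trp73, a p53 family transcription factor gene, formed a group low in most of the family. This split was chosen after the values had been seen and is given without a test, over 10 libraries. The 116 cells with Trp73 had Bdnf at 78.4 ± 99.7 CPM and the 1139 cells without it 565 ± 217 CPM. Ntrk2 stood at 329 ± 68.5 and 788 ± 81.1 CPM in the same order, without overlap of the ranges (233 to 422 and 636 to 907 CPM). Ntrk3 had 0 UMIs in cells with Trp73 and 84.5 ± 14.5 CPM in cells without it, and Sort1 had 84.0 ± 39.3 and 220.2 ± 27.0 CPM. Of the 38 Ngfr UMIs, 18 lay in cells with Trp73, but Ngfr was higher with Trp73 in 3 of 10 libraries, tied in 3 and lower in the others. The median depth was 3638.5 UMIs with Trp73 and 2010 UMIs without.

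Within oligodendrocytes, Ngfr did not follow Sort1. Cells with a Sort1 UMI had Ngfr at 9.16 ± 2.97 CPM and cells without it 11.4 ± 3.22 CPM over 13 libraries, and this split too was added after the data were seen and is given without a test.

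Over 9 cell groups, the profiles most like each member, by Pearson's r over group means across 12093 genes, were those of A830036E02Rik, Crym and St8sia2 for Bdnf and of Scn4b, Asb11 and Spp1 for Ntf3. They were Kcnk1, Gabrg1 and 1500009C09Rik for Ntrk2, and Kcnk2, Ikzf4 and A830082K12Rik for Ntrk3. For Ngfr they were Adamts2, Mbnl2 and Synj2, and for Sort1 Deptor, Cbfa2t2 and Endod1. The closest r was 0.997 for Bdnf, 0.996 for Ntf3, 0.987 for Ntrk2, 0.984 for Ntrk3, 0.928 for Ngfr and 0.858 for Sort1, over points that share libraries. Between members, Ntrk2 and Ntrk3 had r = 0.87 and Ngfr and Sort1 r = 0.66.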
